A study of Macaca mulatta with 7 samples.

Results

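The acrosome and egg-binding genes are 9 genes chosen by name: ACR, ACRBP, ZPBP, ZPBP2, IZUMO1, SPACA1, SPACA3, DKKL1 and CRISP2. Of these, 8 are among the 18284 genes of the files, and ZPBP2 was not analysed here. RNA of all 8 was counted in the sperm of rhesus macaques (Macaca mulatta), at levels from that of CRISP2, above 99.4% of all genes by mean level per length, to that of IZUMO1, above 49.9%. Between Maltreated and Control animals no difference in their sense RNA (8 genes tested), antisense RNA (2 genes) or use of exons (6 genes) passed the tests.

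The acrosome is a secretory vesicle that is built from Golgi membranes over the nucleus of the round spermatid and lies under the plasma membrane of the sperm head. At fertilisation it opens by exocytosis, which releases its enzymes and exposes the inner acrosomal membrane, and only sperm that have undergone this acrosome reaction can fuse with the egg. Its genes are transcribed in the testis, and a mature sperm makes little or no new RNA, so its RNA is taken to be what remains from spermatid stages.

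Total RNA was sequenced from sperm of 3 Maltreated and 4 Control animals, 1 library for each. By its title the series asks about the legacy of early life stress in the primate germline; the labels do not say what the maltreatment was or whether animals were treated in any other way. Maltreated animals were 5.67, 5.71 and 5.78 years old, and Control animals 5.88, 5.82, 5.72 and 5.92 years. Before extraction with TRIzol, sperm of both groups were spun through PureSperm 40/80, layers of rising density that leave debris and most other cells of the ejaculate behind.

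The files count sense reads, on a gene's own strand, apart from antisense reads, on the other strand. Sense counts came to 30715268, 6160996 and 10690315 in Maltreated 1 to 3, and to 9847743, 5528056, 6002772 and 5316383 in Control 1 to 4. A read that overlaps several exons is counted on each, so counts are not molecules. All 12 marker genes of spermatids and sperm were present in every library, together at 48060 to 100554 CPM (counts scaled to the sense total of the library). The 16 listed leukocyte markers summed to 10.9, 58.9 and 1008 CPM in Maltreated 1 to 3, and to 7.51, 7.78, 42.0 and 695 CPM in Control 1 to 4. At 0 were 1, 3 and 1 of the 16 in Maltreated 1 to 3, and 7, 7, 4 and 3 in Control 1 to 4. Maltreated 3 and Control 4 thus stood apart in leukocyte RNA, and Control 2 in RNA of prostate and seminal vesicle genes, with 307 CPM against 4.70 to 34.5 CPM in the other 6 libraries. Of 11 listed epididymal markers, 7 to 10 were at 0 in each library and GPX5 in all. Together they summed to 24.3 CPM in Control 3, against 1.62 to 5.07 CPM in the other 6 libraries. Control 4 was also the highest library in epithelium markers, at 29.0 CPM against at most 7.05 CPM in the others. The same held for markers of testis somatic cells, 81.3 against at most 52.3 CPM, and erythroid cells, 27.8 against at most 14.8 CPM. In bulk RNA, fewer cells of a type and less RNA per cell cannot be told apart.

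Levels of different genes are compared below as CPM per kilobase of exon, with CPM scaled by TMM factors. CRISP2 stood highest at 371 ± 357 (mean over all libraries, SD, n = 7) and was above DKKL1 in 7 of 7 libraries. DKKL1 followed at 28.1 ± 4.85, SPACA1 at 18.4 ± 15.5, ACRBP at 14.9 ± 6.96 and ZPBP at 14.6 ± 4.27 CPM per kilobase. Neighbours among these 4 did not differ beyond their spread: DKKL1 was above SPACA1 in 4 of 7 libraries, SPACA1 above ACRBP in 4, and ACRBP above ZPBP in 3. ZPBP was above SPACA3, at 7.10 ± 5.24, in 7 of 7 libraries. SPACA3 was above ACR, at 2.93 ± 0.832, in 6 of 7, and ACR above IZUMO1, at 1.25 ± 1.33 CPM per kilobase, also in 6 of 7. Over the 7 libraries the coefficient of variation of the level was smallest for DKKL1, 17.3%, and largest for IZUMO1, 106%, with CRISP2 at 96.2% and SPACA1 at 84.4%. The CRISP2 values rest on Control 4: without it the level was 238 ± 59.1 CPM per kilobase (SD, n = 6) and the coefficient of variation 24.9%.

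**Figure D1:**
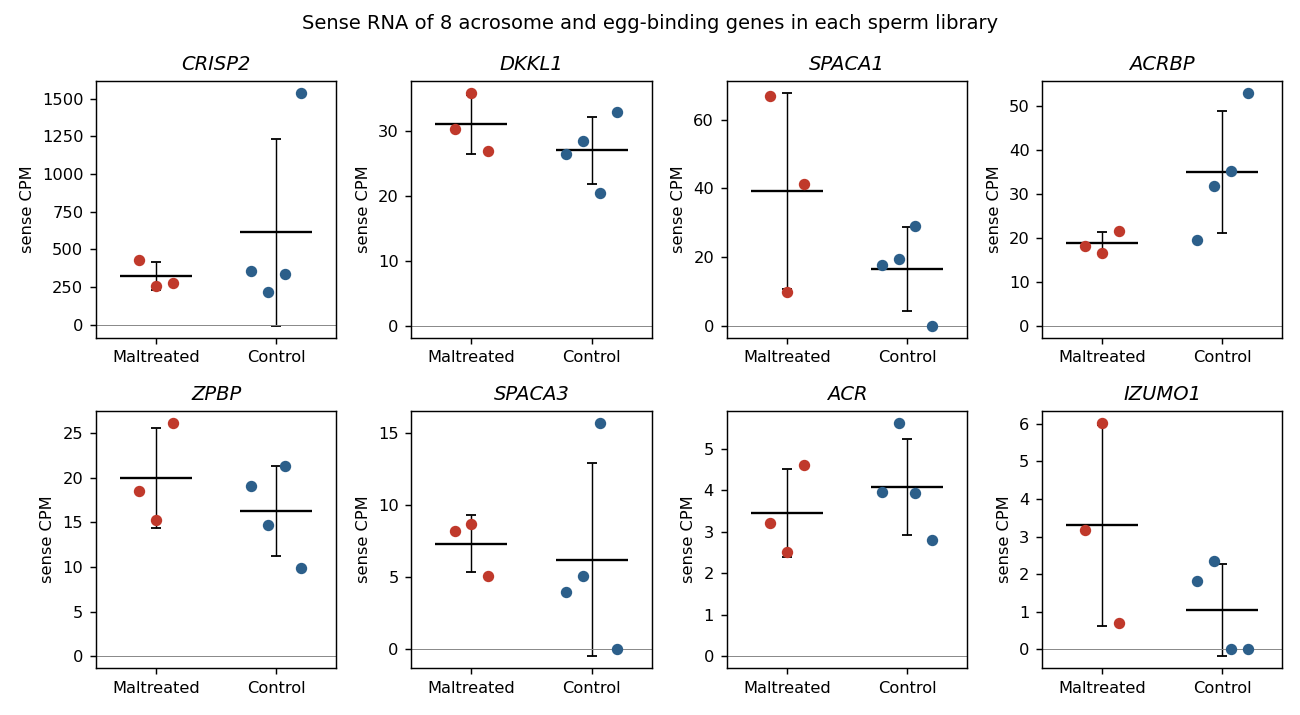
Sense level of each of the 8 genes in TMM-scaled CPM, on a linear axis of its own for each gene, with Maltreated libraries left of Control libraries; points are libraries, the horizontal line is the group mean and the bar its SD. The groups overlap in all 8 genes, the CRISP2 point of Control 4 lies at 1539 CPM, and IZUMO1, SPACA1 and SPACA3 have a point at 0 in Control 4.

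ACR encodes acrosin, the trypsin-like serine protease of the acrosome, stored as the inactive proacrosin. The gene lies on the plus strand of chromosome 15 at 92607133 to 92615817, in 6 exons of 1299 bases together. Its sense level was 3.22, 2.51 and 4.60 CPM in Maltreated 1 to 3, against 3.95, 5.62, 3.93 and 2.79 CPM in Control 1 to 4. The highest value was that of Control 2, the lowest that of Maltreated 2, and the groups overlapped. Means were 3.44 ± 1.06 CPM (SD, n = 3) in Maltreated and 4.07 ± 1.16 CPM (SD, n = 4) in Control sperm, which is a log2 fold change of -0.24 ± 1.01 (SE), given throughout as Maltreated over Control. Although acrosin is the best known enzyme of the vesicle, its RNA was the second lowest of the 8 per length. In Control 4 only 15 sense counts were left, on exons 5 and 6, beside 28 antisense counts on exon 6. Antisense counts on ACR in the other libraries were confined to the 9 of Maltreated 1.

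ACRBP encodes the acrosin-binding protein, which binds proacrosin and, as known from the mouse, takes part in its packing and activation. The gene lies on the minus strand of chromosome 12 at 6864583 to 6873989, in 10 exons of 1885 bases. ACRBP stood at 18.2, 16.7 and 21.7 CPM in Maltreated 1 to 3, against 19.5, 31.9, 35.4 and 53.1 CPM in Control 1 to 4. Of the Control libraries 3 lay above every Maltreated one, and Control 1 lay below Maltreated 3, so that the groups overlapped by that library. Means were 18.9 ± 2.56 CPM (SD, n = 3) in Maltreated and 34.97 ± 13.9 CPM (SD, n = 4) in Control sperm. The log2 fold change of -0.89 ± 0.52 (SE) had the smallest unadjusted p of the 8 genes, 0.115 in edgeR's quasi-likelihood test. It was negative under all 19 alternatives, between -1.09 and -0.58, and -0.63 without Control 4.

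The ACRBP counts of Control 4 were spread unlike those of the other libraries. Exons 1 and 2, which hold 308 bases, carried 87.4% of its 285 sense counts, against 25.0, 0 and 24.8% in Maltreated 1 to 3 and 22.4, 10.8 and 9.18% in Control 1 to 3. All other counts of Control 4 lay on exon 5, and the 7 exons that remain were at 0, so that 19.7% of the exon bases were covered. The 176 counts of Control 2 covered 100% of them. Control 4 is also 1 of the 2 libraries high in leukocyte RNA, and the highest in markers of epithelium, testis somatic cells and erythroid cells. The part of RNA of other cells in the ACRBP level was not tested.

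ZPBP encodes a protein of the acrosomal matrix that binds the zona pellucida, the coat of the egg; in the mouse its loss disturbs the compaction of the acrosome. It is annotated on the plus strand of chromosome 7 at 58391244 to 58538863, in 8 exons of 1223 bases. ZPBP stood at 18.5, 15.2 and 26.1 CPM in Maltreated 1 to 3, against 19.1, 14.7, 21.4 and 9.87 CPM in Control 1 to 4. The values interleaved, with Maltreated 3 highest and Control 4 lowest. Means were 19.9 ± 5.60 CPM (SD, n = 3) in Maltreated and 16.3 ± 5.08 CPM (SD, n = 4) in Control sperm, a log2 fold change of 0.30 ± 0.60 (SE). Without Control 4 it was 0.11, without Maltreated 3 it was 0.04, and without both libraries -0.14. All 53 ZPBP counts of Control 4 lay on exon 5. Exon 8, the last, with 16.4% of the exon bases, held 9 of the 1382 sense counts of all libraries, 2 in Maltreated 1 and 7 in Maltreated 3.

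IZUMO1 encodes the sperm membrane protein that binds JUNO on the egg and is exposed by the acrosome reaction; mouse sperm without it cannot fuse. Its 9 exons lie on the minus strand of chromosome 19 at 43632682 to 43639083 and hold 1612 bases. Its level was 3.18, 6.02 and 0.694 CPM in Maltreated 1 to 3, against 1.81, 2.36, 0 and 0 CPM in Control 1 to 4. No count was found in Control 3 and Control 4, where a count of 0 allows up to 0.512 and 0.559 CPM, the level of 3 counts (counting error only). Maltreated 3, at 8 counts, lay below Control 1 and Control 2, so the groups overlapped. Means were 3.30 ± 2.67 CPM (SD, n = 3) in Maltreated and 1.04 ± 1.22 CPM (SD, n = 4) in Control sperm, a log2 fold change of 1.63 ± 1.62 (SE). Without Maltreated 2 this value was 0.86 and without Control 2 it was 2.36, the ends of the range over single libraries left out. With antisense counts added it was 0.78.

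In Maltreated 2, the library with the highest IZUMO1 level, each of the 9 exons carried exactly 4 counts. RASIP1, 175 bases away on the same strand, carried 2 to 4 counts on each of its 12 exons in that library, and FUT1, 1097 bases away on the other side, 4 on both of its exons. BCAT2, a gene on the same strand farther off that was picked after its values were seen, had 4 counts on 9 of its 11 exons. FGF21, which lies between FUT1 and BCAT2 on the opposite strand and was picked in the same way, had no sense count there. Among the 6616 genes with at least 9 exons that passed the filter on low counts, 94 had 1 and the same count on every exon in Maltreated 2. In the other libraries 11 to 124 did. Antisense counts on IZUMO1 showed the same evenness in Control 2, with 2 on each of the 9 exons. Once the lowest exon count was taken off every exon of a gene, IZUMO1 no longer passed the filter on low counts.

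SPACA1 encodes a membrane protein of the acrosome; mouse sperm that lack it have round heads and malformed acrosomes. The gene lies on the plus strand of chromosome 6 at 86046304 to 86065637, in 7 exons of 1432 bases. SPACA1 stood at 66.9, 9.87 and 41.1 CPM in Maltreated 1 to 3, against 17.6, 19.6, 29.0 and 0 CPM in Control 1 to 4. The 2 highest values were those of Maltreated 1 and Maltreated 3, but Maltreated 2 lay below Control 1, 2 and 3. Control 4 had no count, which allows up to 0.559 CPM. Means were 39.3 ± 28.5 CPM (SD, n = 3) in Maltreated and 16.6 ± 12.1 CPM (SD, n = 4) in Control sperm, a log2 fold change of 1.25 ± 1.15 (SE). It was 0.61 without Maltreated 1, 0.82 without Control 4 and 0.29 with age as a covariate.

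Counts of SPACA1 piled up in the middle of the transcript. Exons 4 and 5, with 16.8% of the exon bases, held 80.3% of its 2972 sense counts over all libraries. Exons 6 and 7, with 52.7% of the bases, held 4 counts, 0.135%. Exons 1 to 5 alone were covered over 95.1, 46.6 and 73.2% of their bases in Maltreated 1 to 3, against 77.4, 77.4, 49.4 and 0% in Control 1 to 4. The near absence of counts on the annotated last exons held in both groups and also in Maltreated 1, where 1996 counts lay on exons 1 to 5 and 0 on exons 6 and 7.

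SPACA3 encodes a lysozyme-like protein of the acrosome, called sperm lysozyme-like protein in humans, that lacks the bacteria-degrading activity of lysozyme and has been tied to the binding of sperm to the egg membrane. It is annotated on the plus strand of chromosome 17 at 26803068 to 26828990, in 6 exons of 939 bases. SPACA3 stood at 8.17, 8.70 and 5.03 CPM in Maltreated 1 to 3, against 3.95, 5.07, 15.7 and 0 CPM in Control 1 to 4. The highest and the lowest value were both Control libraries, Control 3 and Control 4. Means were 7.30 ± 1.98 CPM (SD, n = 3) in Maltreated and 6.18 ± 6.72 CPM (SD, n = 4) in Control sperm, a log2 fold change of 0.24 ± 1.31 (SE). The direction turned without Control 4, to -0.19, and with age as a covariate, to -1.05; without Control 3 the value was 1.27. Exons 1 and 2, with 24.9% of the exon bases, had no count on the sense strand in any library. Exons 3 to 6 were covered over 100, 27.0 and 83.8% in Maltreated 1 to 3, against 95.6, 79.0, 52.5 and 0% in Control 1 to 4.

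DKKL1 encodes a secreted glycoprotein of the acrosome related to the Dickkopf inhibitors of Wnt signalling. Its locus is on the plus strand of chromosome 19 at 44254274 to 44266016, in 5 exons of 1027 bases. Its level was the steadiest of the 8, with 30.3, 35.96 and 27.0 CPM in Maltreated 1 to 3, against 26.5, 28.5, 20.5 and 32.98 CPM in Control 1 to 4. Maltreated 2 was highest and Control 3 lowest, and the groups overlapped. Means were 31.1 ± 4.53 CPM (SD, n = 3) in Maltreated and 27.1 ± 5.18 CPM (SD, n = 4) in Control sperm, a log2 fold change of 0.20 ± 0.46 (SE), the narrowest error of the 8. Without any 1 library and under every other alternative it stayed positive, between 0.07 and 0.45. The exons were covered over 100% of their bases in 5 of 7 libraries, and over 89.4% in Control 2 and 63.8% in Control 3.

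CRISP2 encodes a cysteine-rich secretory protein made in the testis, found in the acrosome and in the outer dense fibres of the tail, and tied to the binding of sperm and egg. Its locus is on the minus strand of chromosome 6 at 50632999 to 50658594, in 9 exons of 1313 bases. CRISP2 stood at 432, 258 and 276 CPM in Maltreated 1 to 3, against 357, 217, 334 and 1539 CPM in Control 1 to 4. The other 6 libraries lay between 217 and 432 CPM, with the groups interleaved, and Control 4 lay far above them. Means were 322 ± 95.4 CPM (SD, n = 3) in Maltreated and 612 ± 621 CPM (SD, n = 4) in Control sperm, a log2 fold change of -0.93 ± 0.62 (SE). Without Control 4 this value was 0.073, and it was 0.17 without Control 4 and Maltreated 3 together, so its sign rests on Control 4.

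All 9 exons of CRISP2 were counted in all 7 libraries, also in Control 4, where 3 other members were at 0 and ACRBP and ZPBP were counted on few exons. Exon 1, with 7.84% of the exon bases, held 27.1, 25.6 and 20.6% of the sense counts in Maltreated 1 to 3, against 27.5, 20.1, 20.1 and 25.9% in Control 1 to 4. The sense counts of Control 4 were thus spread over the exons much as in the other libraries. CRISP2 took 74.4, 73.1 and 68.6% of the summed CPM of the 8 genes in Maltreated 1 to 3, against 79.5, 66.8, 72.6 and 94.0% in Control 1 to 4. Leukocyte markers summed to 695 CPM in Control 4, which was also highest in markers of epithelium, testis somatic cells and erythroid cells. The part of RNA of other cells in the CRISP2 level of that library was not tested.

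**Figure D2:**
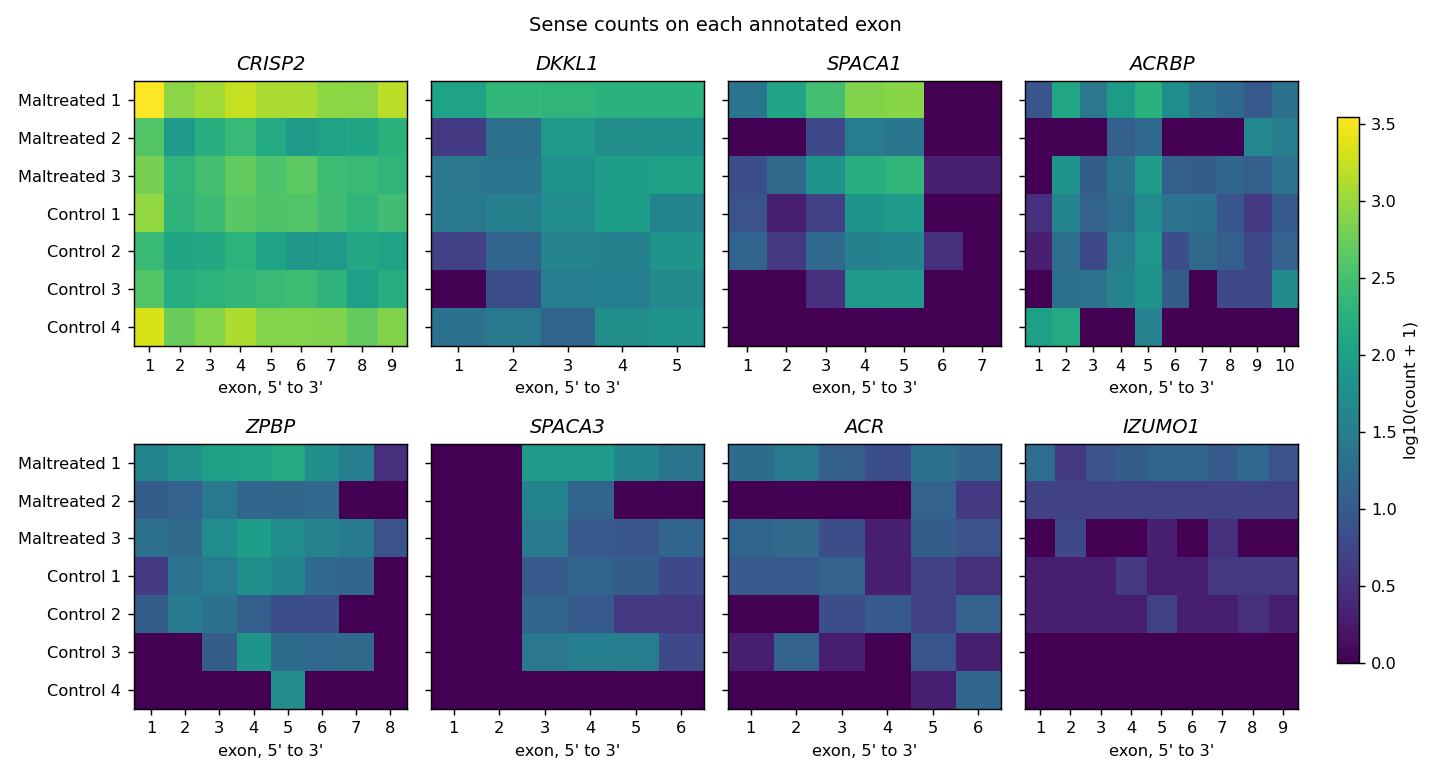
Sense counts on each annotated exon in 5' to 3' order, as log10(count + 1) in colour, with Maltreated libraries above Control libraries. SPACA1 counts lie mostly on exons 4 and 5, exons 1 and 2 of SPACA3 are empty, IZUMO1 is even in Maltreated 2, and in Control 4 ACRBP is counted on exons 1, 2 and 5 and ZPBP on exon 5 alone.

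The test of Maltreated against Control asked whether sperm RNA of these genes differs with the history of the animals. By edgeR's quasi-likelihood test with Benjamini-Hochberg adjustment over 10719 genes at a threshold of 0.05, 0 of 8 members passed in either direction, each with an adjusted p of 0.999; of all genes tested, 0% passed. At an unadjusted p under 0.05 edgeR called 0 members and 1.71% of all genes, and the DESeq2 Wald test called 0 members and 3 genes in all at an adjusted p under 0.05. Of the 8 log2 fold changes 5 were positive and 3 negative, with a median of 0.22, against -0.02 over all genes tested, of which 51.3% were negative. No member had groups that did not overlap, while 2.1% of all tested genes were without overlap higher in Maltreated and 1.49% lower, 3.59% together. The standard errors ran from 0.46 in DKKL1 to 1.62 in IZUMO1 on the log2 scale. Each library carries the age of its own animal, and the p values measure the spread between these libraries.

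**Figure D3:**
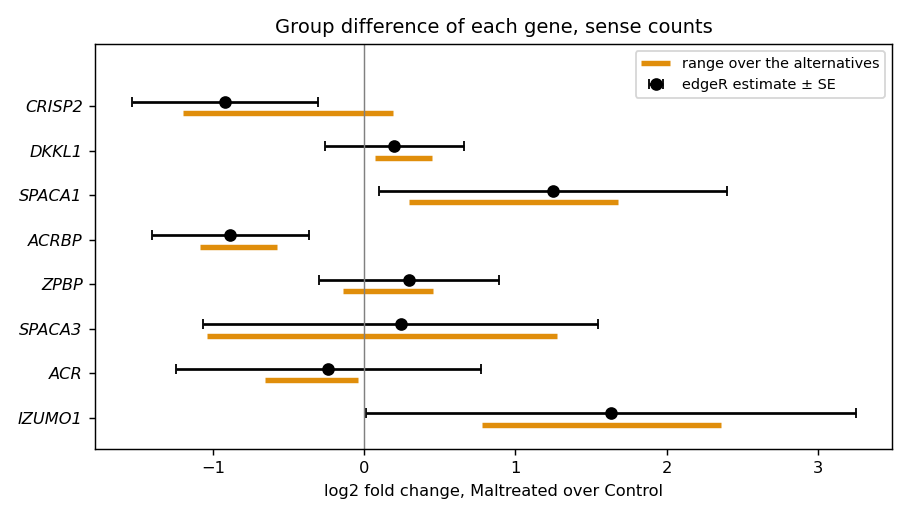
Log2 fold change in sense counts for each gene, Maltreated over Control, with the edgeR estimate and its SE as a point with a bar and the range over the alternative settings as a thick line. The range of ACRBP stays below 0, from -1.09 to -0.58, that of DKKL1 above 0, from 0.07 to 0.45, and those of CRISP2, SPACA3 and ZPBP cross 0.

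Summed over the 8 genes the level was 580, 353 and 403 CPM in Maltreated 1 to 3, against 450, 324, 460 and 1638 CPM in Control 1 to 4. This is a mean of 445 ± 119 CPM (SD, n = 3) in Maltreated and 718 ± 616 CPM (SD, n = 4) in Control sperm, and the Control mean was 411 CPM without Control 4. The 7 genes other than CRISP2 summed to 148, 95.0 and 126 CPM in Maltreated 1 to 3, against 92.4, 108, 126 and 98.7 CPM in Control 1 to 4. Those sums overlapped and spanned a narrow range, also in Control 4, where CRISP2 was highest. Single genes were not steady there: IZUMO1, SPACA1 and SPACA3 were at 0, and ACRBP, at 53.1 CPM, and DKKL1, at 32.98 CPM, made up most of the sum.

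The exons of the members were covered more fully than those of the median tested gene. The median covered share of the exon bases over the 8 genes was 100, 28.7 and 72.8% in Maltreated 1 to 3, against 83.0, 74.9, 39.0 and 11.4% in Control 1 to 4. Over all tested genes it was 91.9, 12.7 and 48.9% in Maltreated 1 to 3, against 34.5, 28.7, 15.3 and 9.53% in Control 1 to 4. The members' median was the higher in 7 of 7 libraries, and 7 of the 8 also had a level above that of the median gene of the files. They hold 939 to 1885 exon bases each, and genes of like length and level were not set beside them. CRISP2 was covered over at least 93.2% in every library, while ACR reached 82.6% in Maltreated 1 and 10.9% in Control 4. IZUMO1 was covered over 100% of its exon bases in 4 libraries, among them Maltreated 2 and Control 2, where it had 36 and 13 counts. Its exon 1, of 475 bases, was covered in full on 1 count in Control 1 and in Control 2. Full coverage of IZUMO1 thus does not mean that many reads lay along its RNA, and how 1 count covers such an exon was not tested. Counts did not order the libraries alone: Maltreated 2 had more counts than Control 2 and Control 3, yet 10.1% of tested genes were at 0 there, against 2.34% in Control 2 and 6.69% in Control 3. In Control 4 that share was 10.9%, and 3 of the 8 members, IZUMO1, SPACA1 and SPACA3, were at 0.

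**Figure D4:**
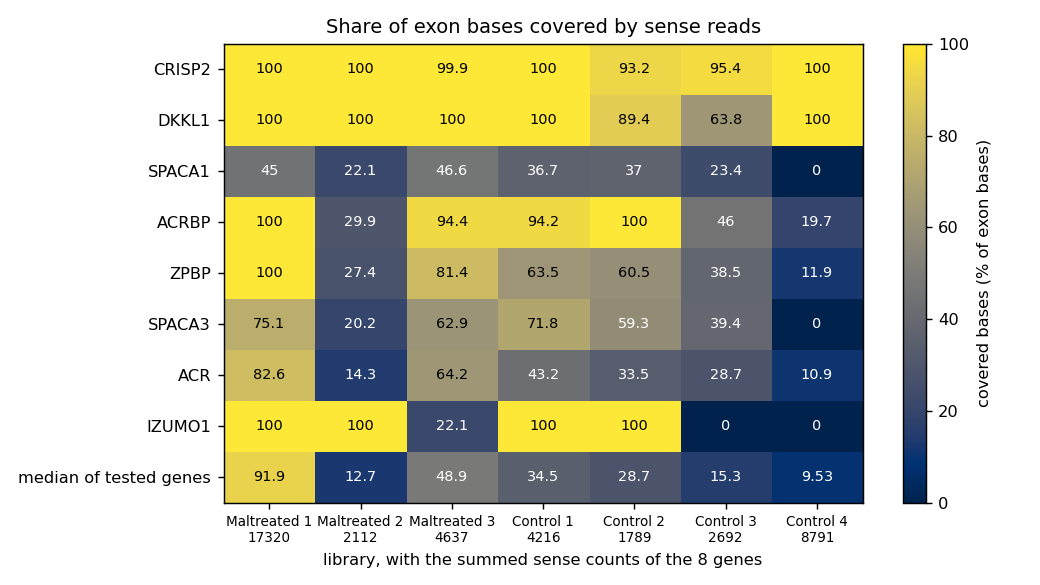
Percent of the exon bases of each gene covered by sense reads in every library, in colour and as a number, with Maltreated libraries left of Control libraries and the median of all tested genes in the bottom row. CRISP2 is covered over at least 93.2% in every library, and in Control 4 no other member but DKKL1 is covered over more than 19.7%.

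Whether exons were used alike in both groups was tested with edgeR's diffSpliceDGE on sense counts per exon. Of the 8 members 6 had enough counted exons, all but ACR and IZUMO1, and 0 of them passed after Simes combination and Benjamini-Hochberg adjustment over 5954 genes, of which 0% passed. At an unadjusted Simes p under 0.05 there were again 0 members, and 0.101% of all genes. Among the 30 member exons tested, the log2 difference of an exon against the rest of its gene was widest in exon 3 of SPACA1, at 0.95, and exon 1 of ZPBP, at 0.81, each Maltreated over Control. In CRISP2 the 9 exons ran from -0.17 in exon 7 to 0.14 in exon 9. The concentration of SPACA1 counts on exons 4 and 5 was present in both groups, with 77.9, 91.5 and 80.8% in Maltreated 1 to 3, against 92.7, 69.4 and 98.8% in Control 1 to 3.

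Pooled over the 8 members, antisense reads were scarcer than in the libraries as a whole. They made up 1.94, 3.03 and 1.97% of the members' counts in Maltreated 1 to 3, against 1.68, 2.93, 1.07 and 2.05% in Control 1 to 4. The share of antisense counts in the whole library was 6.15, 9.69 and 8.45% in Maltreated 1 to 3, against 6.85, 10.4, 8.86 and 12.1% in Control 1 to 4, above that of the members in 7 of 7 libraries. Without CRISP2 the members stood at 2.59, 0 and 3.19% in Maltreated 1 to 3, against 3.13, 4.35, 2.77 and 5.53% in Control 1 to 4, again below the library in 7 of 7. Over all libraries antisense counts came to 568 on CRISP2, 117 on DKKL1, 41 on IZUMO1, 37 on ACR, 29 on SPACA1, 21 on ACRBP, 17 on SPACA3 and 11 on ZPBP. Single members differed from the pooled share: antisense made up 19.5% of the counts on both strands in IZUMO1 and 12.1% in ACR. It made up 5.2% in DKKL1, 3.22% in SPACA3, 1.72% in CRISP2, 1.19% in ACRBP, 0.966% in SPACA1 and 0.79% in ZPBP. No annotated gene of the files overlaps any of the 8 on either strand.

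The antisense counts of CRISP2 lay elsewhere on the gene than its sense counts. Summed over the libraries, exons 5 and 6 held 64.3% of the antisense counts and 20.1% of the sense counts. Exon 1 held 0.352% of the antisense counts and 25.4% of the sense counts. On exons 5 and 6 the antisense counts were nearly equal in each library, with 64 and 63 in Maltreated 1, 24 and 24 in Maltreated 2, and 19 and 19 in Maltreated 3. In Control 1 they were 9 and 7, in Control 4 they were 68 and 68, and in Control 2 and Control 3 both were 0. Control 1, 2 and 3 thus had more antisense counts on exons 3 and 4, with 9 and 14, 9 and 11, and 4 and 4. On the sense strand exons 5 and 6 differed more in Maltreated 2, with 145 and 85 counts, than in Maltreated 1, with 1242 on each.

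**Figure D5:**
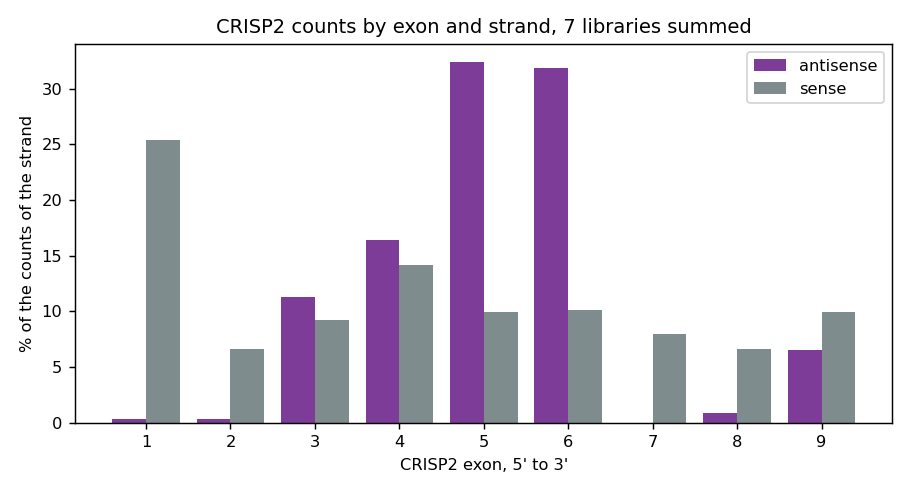
Share of the CRISP2 counts of each strand that lies on each of its 9 exons, in percent, summed over the 7 libraries, with antisense bars left of sense bars. Antisense counts lie mostly on exons 5 and 6 (64.3%), and sense counts on all exons with the most on exon 1 (25.4%).

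With enough antisense counts for a test were DKKL1 and CRISP2 alone. By edgeR's quasi-likelihood test on antisense counts, adjusted over 4382 genes, 0 of the 2 passed and 0% of all genes; at an unadjusted p under 0.05 there were 0 members and 2.4% of all genes. The antisense log2 fold change was 1.01 ± 1.91 (SE) for DKKL1 and 0.01 ± 1.26 for CRISP2. Over single libraries left out they ranged from 0.47 to 1.62 for DKKL1, which did not pass the filter without Control 1, and from -0.35 to 1.04 for CRISP2, and with age as a covariate they were 2.11 and 2.22. A test of whether the ratio of antisense to sense counts differs between the groups, in 1 edgeR model over both strands with the library as a block, took in all 8 members and 12005 genes. Of these, 0 members and 0% of all genes passed after Benjamini-Hochberg adjustment, and 0 members and 2.14% of all genes had an unadjusted p under 0.05. The widest estimates were those of IZUMO1, -4.48 ± 3.71 (SE) on the log2 scale, and SPACA3, 3.85 ± 2.88, on 41 and 17 antisense counts.

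Among other genes of the acrosome and of fertilisation none passed the test either. Of 16 tested genes among the 21 listed for the acrosome vesicle, 0 passed edgeR's test, 6 log2 fold changes were positive and 10 negative, with a median of -0.36, against -0.02 over all genes. CALR3, a testis relative of the chaperone calreticulin, was the most abundant of these per length, with 437 ± 46.4 CPM per kilobase over the 7 libraries. It had 573 ± 85.4 CPM (SD, n = 3) in Maltreated and 553 ± 45.0 CPM (SD, n = 4) in Control sperm. CCDC136, a coiled-coil protein needed for acrosome formation in the mouse, had 711, 272 and 429 CPM in Maltreated 1 to 3, against 386, 197, 325 and 1619 CPM in Control 1 to 4. It was thus, like CRISP2, several times higher in Control 4 than in Control 1 to 3. SPINK2, an inhibitor of acrosin, stood at 32.3 ± 5.54 CPM (SD, n = 3) in Maltreated and 42.0 ± 30.5 CPM (SD, n = 4) in Control sperm, and Control 4, at 83.3 CPM, was again the highest library. CYLC2, a cylicin of the theca around the sperm nucleus, had a log2 fold change of -1.26 ± 0.74 (SE), CAPZA3, an actin-capping subunit of the sperm head, 0.95 ± 0.67, and SPESP1, a protein of the equatorial segment, 1.59 ± 1.34.

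Genes that build the acrosome numbered 19 tested of 20 listed, 11 positive and 8 negative, with a median of 0.15 and 0 passing. RAB6A, a Golgi GTPase, stood at 628 ± 216 CPM (SD, n = 3) in Maltreated and 588 ± 193 CPM (SD, n = 4) in Control sperm. SPATA16, whose loss gives round-headed sperm in humans, stood at 155 ± 106 CPM (SD, n = 3) in Maltreated and 116 ± 53.6 CPM (SD, n = 4) in Control sperm, and CCDC62 at 119 ± 32.4 CPM in Maltreated and 140 ± 51.2 CPM in Control sperm. The smallest p values belonged to the kinase subunit CSNK2A2 and to GOPC and PICK1, which act in the traffic of Golgi vesicles. Their log2 fold changes were -1.44 ± 1.09, -1.14 ± 1.16 and -0.90 ± 0.92 (SE). All 3 were lowest in Maltreated 2, at 0.167, 0.167 and 1.17 CPM, where 0.167 CPM is a single count.

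For fusion with the egg and passage of the zona, 17 of 23 listed genes were tested, 7 positive and 10 negative, with a median of -0.39 and 0 passing. ADAM32, a testis ADAM protein, stood at 970 ± 233 CPM (SD, n = 3) in Maltreated and 1267 ± 421 CPM (SD, n = 4) in Control sperm. The paralogs of IZUMO1 were more abundant than IZUMO1 itself: IZUMO4 stood at 96.0 ± 19.7 and IZUMO2 at 31.6 ± 15.7 CPM per kilobase over the 7 libraries. ADAM2, the fertilin beta subunit, stood at 35.7 ± 12.0 CPM (SD, n = 3) in Maltreated and 18.0 ± 11.4 CPM (SD, n = 4) in Control sperm, a log2 fold change of 0.99 ± 0.63 (SE). That of ADAM20 was -2.06 ± 1.60, on levels of 0.887 ± 0.912 CPM (SD, n = 3) in Maltreated and 3.82 ± 3.86 CPM (SD, n = 4) in Control sperm.

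Of the machinery of acrosomal exocytosis 16 of 24 listed genes were tested, 8 positive and 8 negative, with a median of -0.03 and 0 passing. RIMS1, a vesicle-docking protein of the active zone, stood at 24892 ± 6088 CPM (SD, n = 3) in Maltreated and 22979 ± 5532 CPM (SD, n = 4) in Control sperm. UNC13B, a priming factor, stood at 580 ± 84.1 CPM (SD, n = 3) in Maltreated and 559 ± 110 CPM (SD, n = 4) in Control sperm, and NAPA, which recycles SNARE complexes, at 106 ± 56.0 CPM in Maltreated and 96.1 ± 29.0 CPM in Control sperm. The SNARE genes STX1A, SNAP29 and VAMP3 had log2 fold changes of -1.48 ± 1.18, -0.42 ± 0.50 and -0.68 ± 0.83 (SE).

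Genes of the egg side were read for comparison. Of 12 listed, 4 passed the filter on low counts, all 4 log2 fold changes were positive, with a median of 0.33, and 0 passed the test. BMP15, an oocyte growth factor, was at 0 in all libraries. ZP3, a glycoprotein of the zona, was counted nonetheless, at 17.2 ± 1.97 CPM (SD, n = 3) in Maltreated and 16.2 ± 7.84 CPM (SD, n = 4) in Control sperm. Per length it stood at 12.9 ± 4.41 CPM per kilobase over the 7 libraries, beside 14.6 ± 4.27 for ZPBP. NLRP5, a maternal-effect gene of the oocyte, stood at 14.6 ± 6.22 CPM (SD, n = 3) in Maltreated and 10.7 ± 1.43 CPM (SD, n = 4) in Control sperm. CD9, a tetraspanin of the egg membrane that other cells also make, stood at 0.569, 3.85 and 11.3 CPM in Maltreated 1 to 3, against 0.747, 2.36, 1.02 and 1.86 CPM in Control 1 to 4. It was highest in Maltreated 3, the library with the most leukocyte RNA. In Control 4, also high in leukocyte RNA, it lay below Maltreated 2 and Control 2.

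Relatives and counterparts of the members were mostly low: 9 of 15 listed were tested, 3 positive and 6 negative, with a median of -0.33 and 0 passing, and DKK2 was at 0 throughout. LYZL1, a lysozyme-like gene related to SPACA3, stood at 14.8 ± 4.72 CPM (SD, n = 3) in Maltreated and 18.8 ± 15.4 CPM (SD, n = 4) in Control sperm. LYZ, the lysozyme gene and also a leukocyte marker, reached 74.9 CPM in Maltreated 3 and stayed at or below 7.45 CPM in the other libraries. PI15, a relative of the CRISP family, had a log2 fold change of -2.88 ± 1.66 (SE), with 17.1 CPM in Control 3. F2, the prothrombin gene, compared here with acrosin as another serine protease, stood at 32.1 ± 23.3 CPM (SD, n = 3) in Maltreated and 22.0 ± 8.004 CPM (SD, n = 4) in Control sperm. CRISP3, the nearest gene to CRISP2 at 21620 bases, had 310 sense counts over all libraries, against 32376 for CRISP2.

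For each member the tested gene with the most similar level across the 7 libraries was found by the root mean square difference of log2(CPM per kilobase + 0.1). The closest pair was DKKL1 and SUPT20H, at 0.14, then ACR and C5, at 0.18, ZPBP and RUNX1, at 0.26, SPACA3 and ZSCAN26, at 0.27, and ACRBP and MKS1, at 0.31. CRISP2 and NRG4, IZUMO1 and SGK196, and SPACA1 and BCKDHB were less alike, at 0.62, 0.62 and 0.66. None of the 8 nearest genes was another gene of the lists above, and over 10719 genes and 7 libraries some gene lies close to any level.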

How the data were processed

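Total RNA of sperm was sequenced from 3 Maltreated and 4 Control macaques, grouped by the sample titles. The tools named are STAR, featureCounts and bedtools, per the submitters' processing notes, without versions or roles. Genome build and annotation are not given in the sources used here; the deposited files supply all coordinates. Per the file headers, the deposited series-wide table gives a read count for each gene, unnormalised and split by strand, and the fraction of its bases covered, as the authors computed it; deposited files without headers hold the same per exon. The deposited gene counts equalled the sums over exon entries in all 18282 genes used; 2 genes listed on both strands were left out. None of the 43070 repeated exon entries belongs to a member. The libraries carry no stated molecular identifiers, so reads may be copies of 1 molecule and floors cover counting error only.

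The test was that of edgeR 4.0.16 (R 4.3.3): TMM factors, filterByExpr (minimum count of 10, minimum total of 15), robust quasi-likelihood F test on the group, Benjamini-Hochberg adjustment over all genes tested, threshold 0.05, 5 residual degrees of freedom. Antisense counts had a fit of their own, and both strands together a fit with the library as a block. Exon usage was tested with diffSpliceDGE on sense counts per exon, repeated entries dropped. CPM of named genes are TMM-scaled, and summed CPM of gene lists use all sense counts. The sense, strand and exon fits were tested on simulated data. The exon simulation was set to less spread between libraries than the sense counts had, so it cannot show what the exon test could find here. Alternatives were other scalings, filters, DESeq2 1.42.0, exon entries counted once, both strands summed, a replicate block, age as a covariate and libraries left out; taking off the lowest exon count of a gene was added after seeing the data. The members and all lists were chosen with earlier results of these data known. Named are all members; of each list the 3 tested genes with the smallest p and the 3 with the highest CPM per kilobase; each member's nearest gene in level; and neighbouring genes.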

Additional observations from a re-analysis of the deposited data

Results flagged for a closer look

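In groups of 4 to 10 libraries, the highest or lowest value was set against the others by its gap over the group's range, with Dixon's 95% critical value for 4 libraries; this covers the Control group alone. Of 25 such sets of values of the members 6 passed, and several of these share Control 4. Chance gives about 1 in 20 for normally distributed values, and whether CPM and covered shares are so distributed was not tested. This rate does not hold for the antisense sets of ACR, SPACA1 and ZPBP, where the other Control libraries are at 0 and any count passes. Of the 6, 3 concern CRISP2: its sense level of 1539 CPM and its antisense level of 28.5 CPM in Control 4, and the summed level of the members in that library, 1638 CPM, of which CRISP2 made up 94.0%. On ACR, antisense reads stood at 5.22 CPM in Control 4, 28 counts on exon 6, and at 0 in the other Control libraries. On SPACA1 they stood at 3.59 CPM in Control 3, 21 counts on exon 4, and at 0 in the others. On ZPBP, antisense reads stood at 0.213 CPM in Control 1, which is 2 counts and below the level of 0.320 CPM that a count of 0 would allow there. Control 4 is 1 of the 2 libraries high in leukocyte markers, at 695 CPM, and the highest in markers of epithelium, testis somatic cells and erythroid cells. The part of RNA of other cells in these values was not tested.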

How the results depend on the processing

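No setting brought any of the 8 members past a test. Of the values of single genes under other settings 168 kept their direction and 14 turned it, and 5 counts of all genes moved. The mean summed level of the members in Control libraries, 718 CPM, was 411 without Control 4 and 404 without Control 4 and Maltreated 3. It was at most 846 without any other single library. With each exon entry counted once it was 867 CPM, and the Maltreated mean was 539 CPM, against 445 CPM. Counts of all genes past the edgeR test, 0 in sense counts, were 3 with the DESeq2 Wald test (CA11, CHIA and PPP2R2C) and 1 with age as a covariate (CD63). In antisense counts they were 16 with DESeq2 and 6 without a filter, against 0. For exon usage they ranged from 0 to 1 when single libraries were left out, with DNAH14 called without Control 3. These genes are named because their number is small, after their values were seen. The sense log2 fold change of CRISP2, -0.93, became 0.085 with the replicate number as a block and 0.19 with age. It was 0.17 without Control 4 and Maltreated 3, and leaving out single libraries gave -1.20 to 0.073, the latter without Control 4. No Maltreated library shares the number of Control 4, so the block takes Control 4 out of the group estimate and is no separate check on that library. That of SPACA3, 0.24, became -1.05 with age and ranged from -0.19 to 1.27 without single libraries. That of ZPBP, 0.30, became -0.14 without Control 4 and Maltreated 3. The antisense value of CRISP2, 0.01, was -0.081 with total-count scaling, -0.19 with DESeq2 size factors and -0.19 with the DESeq2 Wald test, and -0.35 to 1.04 without single libraries; it was 1.16 with the replicate block, 2.22 with age and 1.32 without Control 4 and Maltreated 3. That of DKKL1, 1.01, was 0.41 with the block, 2.11 with age and 0.13 without Control 4 and Maltreated 3. Beyond that effect of the block, the cause of these shifts was not tested.

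Same-numbered libraries correlated at 0.07, 0.01 and -0.02 in their deviations from the group means. So few values show no clear pairing by number and cannot exclude one. With the replicate block 0 genes passed on either strand. Not every library correlated best with its own number. IZUMO1 could not be fitted once the lowest exon count was removed. The biological coefficient of variation was 0.858 in sense and 1.37 in antisense counts, and levels of 3 counts or fewer in a library were not resolved from 0.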
